A study of Homo sapiens with 4 samples.

Results

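Tetraspanins are membrane proteins that cross the bilayer several times and expose a small and a large extracellular loop. They were followed here by ribosome profiling, which sequences the mRNA fragments that ribosomes shield from nuclease, in K562 and HepG2. K562 is a leukemia line with erythroid features, and HepG2 a liver cancer line that keeps features of hepatocytes. Only fragments that span a splice junction were counted, and a footprint below is 1 such read. The 10 members described are CD81, CD9, CD63, CD151, CD82, TSPAN3, TSPAN4, TSPAN8, TSPAN14 and TSPAN31, of 35224 genes in the deposited tables. All rows whose Ensembl gene identifier belonged to a member were taken, which gave 184 annotated splice junctions. The members were chosen by their footprint counts in the K562 and HepG2 tables, so their differences between the lines are a description with no test. The labels give 2 samples of K562 and 2 of HepG2, all untreated as far as the labels say, lysed with cycloheximide, which holds ribosomes on the mRNA. The samples of a line share 1 table of junction counts. No value therefore has a replicate check, and each interval below is an exact 95% interval of counting error alone. In bulk samples such as these, fewer cells with footprints on a gene and fewer footprints per cell cannot be told apart.

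Tetraspanins act by binding partners at the membrane, among them integrins, immunoglobulin-like proteins and the protease ADAM10, and by gathering them into tetraspanin-enriched microdomains. CD9, CD63 and CD81 are widely used as marker proteins of extracellular vesicles, and CD63 is also a protein of late endosomes and lysosomes. The large loop carries a Cys-Cys-Gly motif that is a signature of the family and takes part in the disulfide bonds of the loop.

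The codons of that motif are shown first because a splice junction lies beside them in nearly all members, so that footprints counted at this junction come from ribosomes on or next to the motif. Reference transcripts of GENCODE release 29 (GRCh38) were used, 1 per member, and the sequences were read from its transcript file. In 9 of 10 members an exon boundary lay exactly 6 bases before the first motif codon. The exception was TSPAN31, whose nearest boundary lay 60 bases after the first motif base. The same distance of 6 bases was found in 19 of the 23 other human tetraspanins. The sequences are printed 5′ to 3′, and capitals mark the Cys-Cys-Gly codons.
CD81: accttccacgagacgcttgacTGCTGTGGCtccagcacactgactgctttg
CD9: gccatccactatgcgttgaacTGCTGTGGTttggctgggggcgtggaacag
CD63: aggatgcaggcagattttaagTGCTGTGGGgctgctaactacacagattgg
CD151: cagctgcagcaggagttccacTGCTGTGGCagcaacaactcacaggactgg
CD82: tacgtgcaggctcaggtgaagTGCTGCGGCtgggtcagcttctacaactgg
TSPAN3: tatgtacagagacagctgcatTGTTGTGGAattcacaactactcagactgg
TSPAN4: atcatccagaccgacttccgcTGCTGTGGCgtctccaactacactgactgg
TSPAN8: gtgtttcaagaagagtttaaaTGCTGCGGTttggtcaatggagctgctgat
TSPAN14: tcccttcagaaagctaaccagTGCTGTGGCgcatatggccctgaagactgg
TSPAN31: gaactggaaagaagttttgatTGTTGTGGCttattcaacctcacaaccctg

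The genes share more of their layout than this boundary. The reference transcripts had 5 to 7 coding junctions and 210 to 270 codons. The first coding junction lay 60 to 84 coding bases after the start codon in all 10, and 61 of the 64 coding junctions fell between codons. A second Cys-Cys-Gly outside the loop motif was present in 4 members, CD81, CD9, CD63 and TSPAN8.

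The K562 table held 7487508 uniquely mapped junction reads, and 9927809 were in that of HepG2. Reads of junctions of a single gene were scaled by effective depth, the total multiplied by the TMM factor of edgeR, which corrects for a few very abundant genes. Of 9 erythroid markers, 8 were higher in K562 by the rule used below and TFRC was past neither limit. Their summed reads were 25332 in K562 and 11899 in HepG2, of which TFRC had 11898. All 8 hepatocyte markers were higher in HepG2, with summed reads of 260 in K562 and 1054689 in HepG2. Markers of lymphocytes, endothelium and fibroblasts summed to 68 footprints in K562 against 101 in HepG2 over 9 genes, with MS4A1 and DCN at 0 in both lines.

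Levels of different genes were compared as reads per coding junction, scaled to 1000000 effective reads, since genes with more junctions collect more reads. The divisor counted every annotated coding junction with at least 1 read in either line, rarely read ones included. It was 11 for TSPAN14 and 7 for TSPAN31, whose reference transcripts have 7 and 5. The intervals do not cover this choice, and close levels may change order with another divisor. In K562, CD63 was at 80.8 (78.5 to 83.2), CD81 at 53.9 (52.1 to 55.9) and CD151 at 18.4 (17.4 to 19.4). CD9 followed at 6.28 (5.70 to 6.91) and TSPAN3 at 5.62 (5.07 to 6.22), and these neighbours did not differ beyond counting error. TSPAN14 at 3.20 (2.84 to 3.58) and TSPAN4 at 3.16 (2.75 to 3.62) could not be told apart either. TSPAN31 was at 2.33 (1.96 to 2.76) and CD82 at 0.645 (0.467 to 0.868). TSPAN8 had no reads, where a floor of 3 counts is a level of 0.0514 and the exact upper limit is 0.0632.

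In HepG2 the order differed below the first place. CD63 again stood first at 92.8 (90.4 to 95.3). TSPAN3 at 18.1 (17.1 to 19.2), CD151 at 15.6 (14.6 to 16.5), TSPAN14 at 8.99 (8.39 to 9.63), TSPAN4 at 4.46 (3.965 to 4.997) and CD9 at 2.97 (2.57 to 3.41) came next. With the median over junctions in place of the mean, TSPAN14 at 12.9 stood before CD151 at 9.70 and TSPAN3 at 9.28. TSPAN8 at 1.09 (0.833 to 1.39) and TSPAN31 at 0.895 (0.669 to 1.17) overlapped. CD82 rested on 2 reads. CD81 had none, where the floor of 3 counts is a level of 0.0517 and the exact upper limit is 0.0635.

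**Figure D1:**
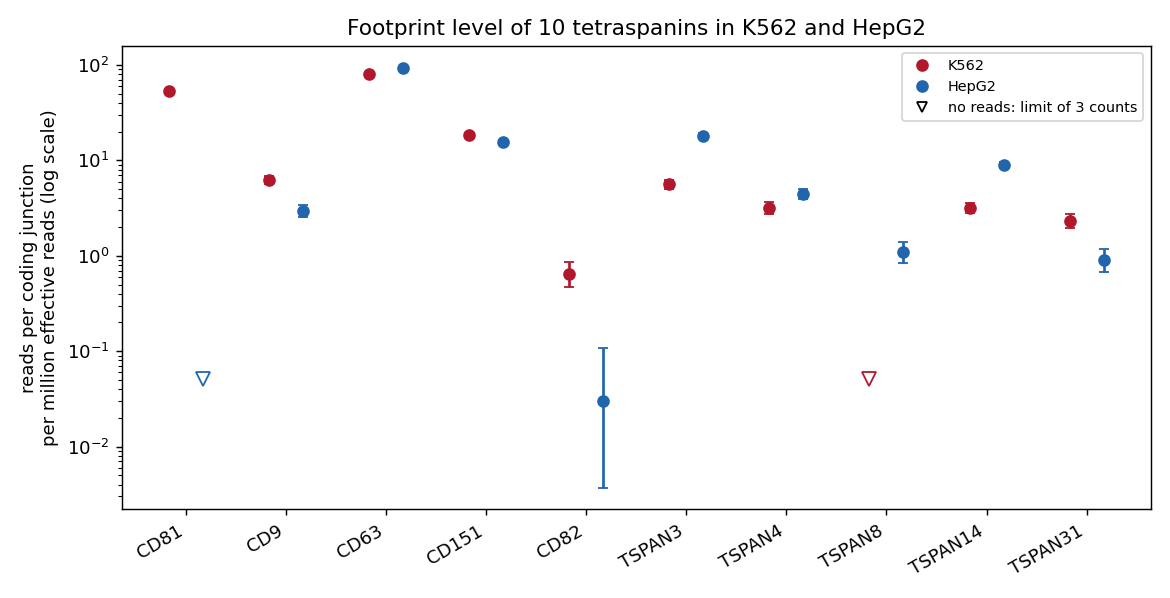
Reads per coding junction, scaled to 1000000 effective reads (log scale), for each member in K562 (red, left) and HepG2 (blue, right), with exact 95% Poisson intervals of counting error. Open triangles mark a gene without reads, drawn at the floor of 3 counts. CD63 is the highest member in each line, CD81 is at 53.9 in K562 and without reads in HepG2, and TSPAN8 is at 1.09 in HepG2 and without reads in K562.

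All 33 human tetraspanins together took 13216 footprints in K562 against 15309 in HepG2. The 10 members accounted for 81.4% (80.8 to 82.1) of them in K562 and 60.1% (59.3 to 60.8) in HepG2. CD63 alone gave 36.3% (35.5 to 37.1) in K562 and 35.4% (34.7 to 36.2) in HepG2. CD81 gave 23.8% in K562 and 0% in HepG2, so that the family's reads were divided differently although the share of CD63 was near the same.

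CD81 and CD9 are close relatives that organise membrane microdomains, CD81 as a subunit of the B cell co-receptor and both as partners of immunoglobulin-like EWI proteins. CD81 (ENSG00000110651, chromosome 11, 2376177 to 2397419) had 3148 footprints in K562 against 0 in HepG2. Against a floor of 3 counts for the HepG2 table, this is at least 1044-fold higher in K562, and the exact interval at 0 reads has its lower limit at 849-fold. The reads fell on all 7 coding junctions of the reference transcript, from 128 to 995 per junction in K562, and each of these was at 0 in HepG2. The most-read was the intron at chromosome 11, 2395047 to 2395415. CD9 (ENSG00000010278, chromosome 12, 6199715 to 6238271) had 419 footprints in K562 against 197 in HepG2, a ratio of 2.12 (1.78 to 2.52). The ratio lay above 2 but its interval did not. All 7 junctions with 10 or more reads had more scaled reads in K562, with ratios of 1.49 to 4.98. The most-read over both lines together, at 6235566 to 6236191, had 86 footprints in K562 against 51 in HepG2.

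CD82, described as a suppressor of metastasis, was a low gene in both lines. CD82 (ENSG00000085117, chromosome 11, 44564427 to 44620363) had 43 footprints in K562 against 2 in HepG2, a ratio of 21.4 (5.57 to 182). Its reads in K562 were spread over 8 junctions. Among them 2 had 13 reads each in K562 and 0 in HepG2, and those were the only CD82 junctions with 10 or more reads.

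CD63 and CD151 had similar scaled reads in the lines. CD63 (ENSG00000135404, chromosome 12, 55725323 to 55729707) had 4799 footprints in K562 against 5424 in HepG2. Its ratio of 0.881 (0.847 to 0.916), a log2 ratio of -0.18, turned to 0.24 with scaling by total reads and to 0.00 without its most-read junction. CD151 (ENSG00000177697, chromosome 11, 832843 to 839831), a partner of laminin-binding integrins, had 1309 footprints in K562 against 1082 in HepG2, a ratio of 1.20 (1.11 to 1.31). Its log2 ratio stayed above 0, between 0.25 and 0.69, under the 10 alternatives tried. Uniquely mapped reads made up 99.7% of all mapped reads of CD63 and 83.4% of those of CD151, the highest and the lowest share among the members.

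TSPAN3 and TSPAN14 were higher in HepG2. TSPAN3 (ENSG00000140391, chromosome 15, 77041404 to 77083984), a regulator known from myeloid leukemia stem cells, had 376 footprints in K562 against 1207 in HepG2. Its ratio was 0.310 (0.275 to 0.348), that is 3.23-fold lower in K562. TSPAN14 (ENSG00000108219, chromosome 10, 80454166 to 80533123) belongs to the TspanC8 subgroup, which carries ADAM10 out of the endoplasmic reticulum. It had 296 footprints in K562 against 828 in HepG2, a ratio of 0.356 (0.311 to 0.407). With scaling by total reads this was 0.476 (0.415 to 0.544) and no longer past 2-fold. Every TSPAN14 junction with 10 or more reads had fewer scaled reads in K562, and the most-read, at 80514064 to 80516203, had 69 footprints in K562 against 156 in HepG2.

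TSPAN8, known as a cell surface protein of digestive tract tumors, was seen only in the HepG2 table. TSPAN8 (ENSG00000127324, chromosome 12, 71125085 to 71441898) had 0 footprints in K562 against 79 in HepG2, which is lower in K562 by at least 26.5-fold when its count is set to the floor of 3 (lower limit of the exact interval 21.02). The HepG2 reads lay on 9 junctions, with at most 20 on 1 of them (71138061 to 71138155).

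TSPAN4 and TSPAN31 passed neither limit. TSPAN4 (ENSG00000214063, chromosome 11, 842808 to 867116), known for its part in forming migrasomes on retraction fibers of migrating cells, had 235 footprints in K562 against 324 in HepG2, a ratio of 0.722 (0.608 to 0.857). TSPAN31 (ENSG00000135452, chromosome 12, 57738013 to 57750211), a gene first found amplified in sarcomas, had 136 footprints in K562 against 53 in HepG2, a ratio of 2.55 (1.85 to 3.58). Its most-read junction, at 57747132 to 57747215, had 39 footprints in K562 against 13 in HepG2. All 5 TSPAN31 junctions with 10 or more reads had more scaled reads in K562.

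Ratios were read by 1 rule throughout: a line is called higher for a gene only where all of the interval is past 2-fold. By this rule 2 of 10 members, CD81 and CD82, were higher in K562, where 16.8% of 10956 genes were. In HepG2, 3 members were higher, TSPAN3, TSPAN8 and TSPAN14, and 21.9% of genes were. The members were chosen with these ratios known, so the counts are not compared further. All 10 members passed the minimum of 20 reads over both tables, and 5 were past neither limit. The median log2 ratio was 0.04 over the members and -0.01 over all genes. Scaling by total reads moved the median of all genes to 0.41. CD9 with 2.83 (2.38 to 3.37) and TSPAN31 with 3.42 (2.47 to 4.79) were then also past 2-fold in K562.

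**Figure D2:**
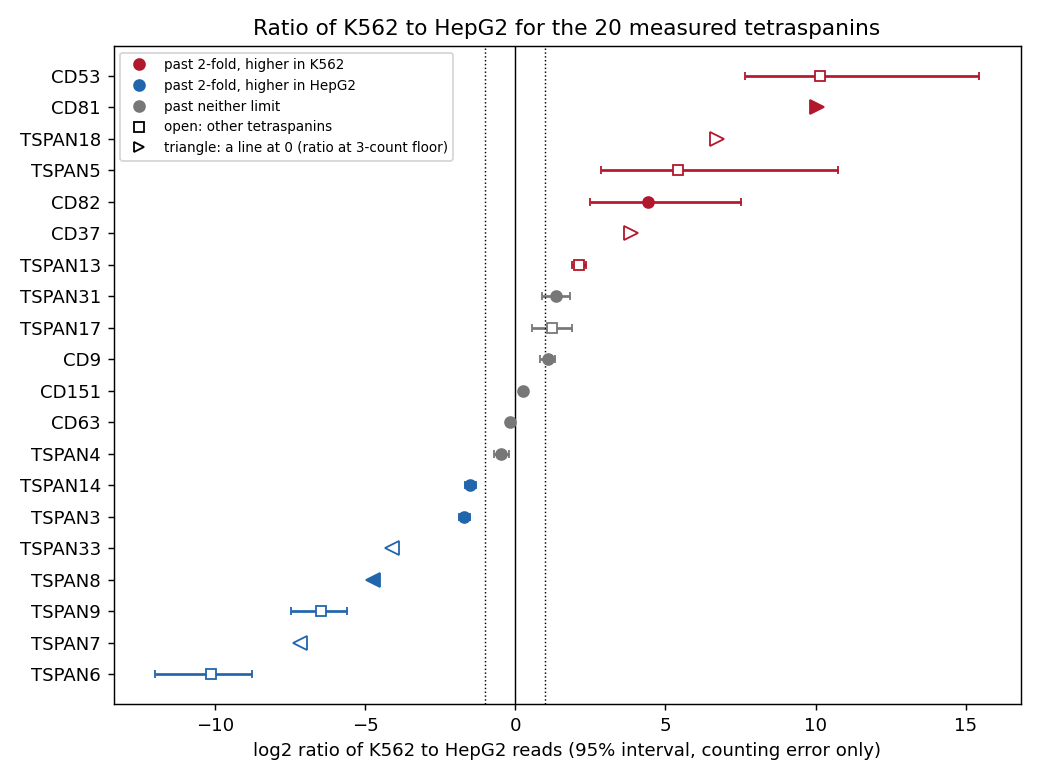
Log2 ratio of K562 to HepG2 reads for the 20 tetraspanins with 20 or more reads, with 95% intervals of counting error; filled symbols are the 10 members, open symbols the others, and triangles mark genes with 0 reads in a line, drawn at the floor of 3 counts. CD81 stands at 10.03 and CD82 at 4.42 on the K562 side, TSPAN8 at -4.73, TSPAN3 at -1.69 and TSPAN14 at -1.49 on the HepG2 side.

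Among the members' junctions, 61 had 10 or more reads, and 107 of 184 had at least 1. Of the 61, 10 were higher in K562 and 9 in HepG2 by the 2-fold rule, where 9.98% and 16.7% of 87286 junctions of all genes were. The 10 comprised 7 of CD81, 2 of CD82 and 1 of CD9. The 9 comprised 3 of TSPAN3, 3 of TSPAN8, 2 of TSPAN14 and 1 of TSPAN4. With scaling by total reads, 14 were higher in K562 and 6 in HepG2. Junctions of a gene share its transcripts and are not independent.

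Within TSPAN3, the ratio was not even along the coding sequence. At the first junction, 63 coding bases after the start codon, it had 44 footprints in K562 against 54 in HepG2, a ratio of 0.811 (0.532 to 1.23). At the junction beside the Cys-Cys-Gly codons it had 96 footprints in K562 against 473 in HepG2, a ratio of 0.202 (0.161 to 0.252), the lowest of its 6. These intervals do not overlap.

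CD63 and TSPAN4 were uneven too. CD63 had 653 footprints in K562 against 418 in HepG2 at its first coding junction, a ratio of 1.56 (1.37 to 1.76). At the most-read junction (chromosome 12, 55726796 to 55726889) it had 1715 footprints in K562 against 2254 in HepG2, a ratio of 0.757 (0.711 to 0.807). TSPAN4 had 9 footprints in K562 against 50 in HepG2 at its last junction, a ratio of 0.179 (0.0775 to 0.368). With all mapped reads this was 23 and 65, a ratio of 0.346 (0.205 to 0.564), no longer past 2-fold. TSPAN4 had 109 and 119 at its most-read junction (864512 to 865512), a ratio of 0.912 (0.697 to 1.19).

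A comparison of early and later junctions was added after these values were seen. Junctions within 100 coding bases of the start codon had a higher ratio of K562 to HepG2 than later ones in 5 of the 7 members with enough reads. The same held in 71.4% of 2973 genes. The members' share of 71.4% thus equals that of all genes.

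**Figure D3:**
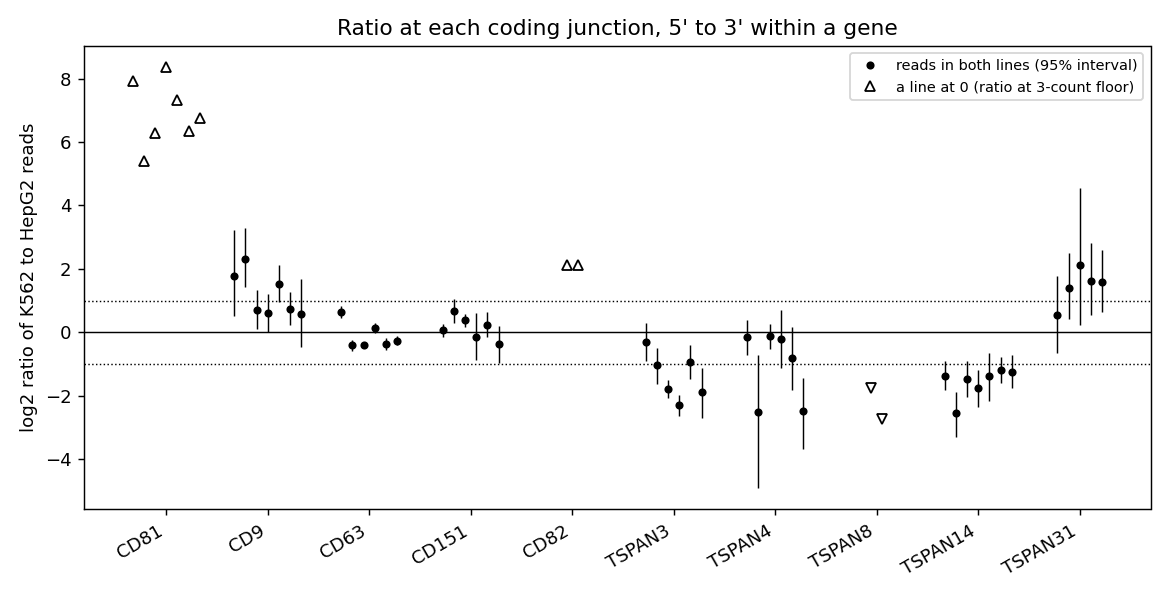
Log2 ratio of K562 to HepG2 reads at each coding junction with 10 or more reads, ordered 5′ to 3′ within each member's reference transcript; bars are 95% intervals of counting error, and open triangles mark junctions with 0 reads in a line, drawn at the floor of 3 counts. The CD81 junctions all lie above the upper 2-fold line, while those of TSPAN3 spread from near 0 at the first junction to a ratio of 0.202 beside the motif.

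Reads were also unequal between junctions within a line. In 8 members, all but TSPAN14 and TSPAN31, an exon boundary lay 102 to 114 bases before the motif, and this junction tended to be the most-read of its gene. Among members with 20 or more coding reads it ranked first alone in 5 of 7 in K562 and in 3 of 6 in HepG2. In K562 it tied for first in CD82, with 13 reads. It held more than an equal share of the reads in all of these 7 and 6. For CD9 in K562, however, the interval of the share, 11.8% to 18.9%, included the equal share of 14.3%. Its share of coding reads ranged from 15.1% to 51.9% in K562, with a median of 34.2%. In HepG2 it ranged from 20.8% to 41.8%, with a median of 35.2%. An equal division over 6 or 7 junctions would give 16.7% or 14.3%. This boundary was singled out after the values were seen, and no value of other genes stands beside these counts.

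At this boundary CD63 had 36.4% (35.0 to 37.7) of its coding reads in K562 and 41.8% (40.5 to 43.1) in HepG2. CD151 had 38.0% (35.3 to 40.8) in K562 and 34.4% (31.5 to 37.4) in HepG2, and TSPAN4 51.9% (44.9 to 58.8) and 40.3% (34.7 to 46.2). CD81 had 31.6% (29.99 to 33.26) in K562. CD9 was the exception in K562, with 15.1% (11.8 to 18.9), where its motif junction was the most-read with 98 of its 418 coding reads. In HepG2 that junction had 34 of 197.

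The junction beside the motif codons, whose sequences stand above, held less. Its median share was 12.98% over 8 members in K562 and 12.7% over 7 in HepG2. It was lowest in CD151, with 2.62% (1.80 to 3.67) in K562 and 3.39% (2.37 to 4.68) in HepG2, and highest in TSPAN3, with 25.7% (21.4 to 30.5) in K562 and 39.3% (36.6 to 42.1) in HepG2. The coding bases around the more often read boundary are shown because this junction held more than an equal share of the reads in each member that could be measured. For CD9 in K562 that excess was within counting error. Capitals mark the last codon of the exon and the first codon of the next. The codon before the boundary was AAG in 5 members, CAG in 2 and GAG in 1. Codons before other junctions were not counted, so a link between these codons and the reads was not tested.
CD81: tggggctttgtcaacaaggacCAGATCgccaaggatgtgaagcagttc
CD9: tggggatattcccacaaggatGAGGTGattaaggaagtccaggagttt
CD63: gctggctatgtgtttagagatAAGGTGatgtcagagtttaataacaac
CD151: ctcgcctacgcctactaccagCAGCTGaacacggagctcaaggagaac
CD82: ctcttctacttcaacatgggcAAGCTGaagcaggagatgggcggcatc
TSPAN3: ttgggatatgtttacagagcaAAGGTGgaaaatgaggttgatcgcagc
TSPAN4: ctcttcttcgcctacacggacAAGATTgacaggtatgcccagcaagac
TSPAN8: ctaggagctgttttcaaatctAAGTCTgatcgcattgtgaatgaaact

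**Figure D4:**
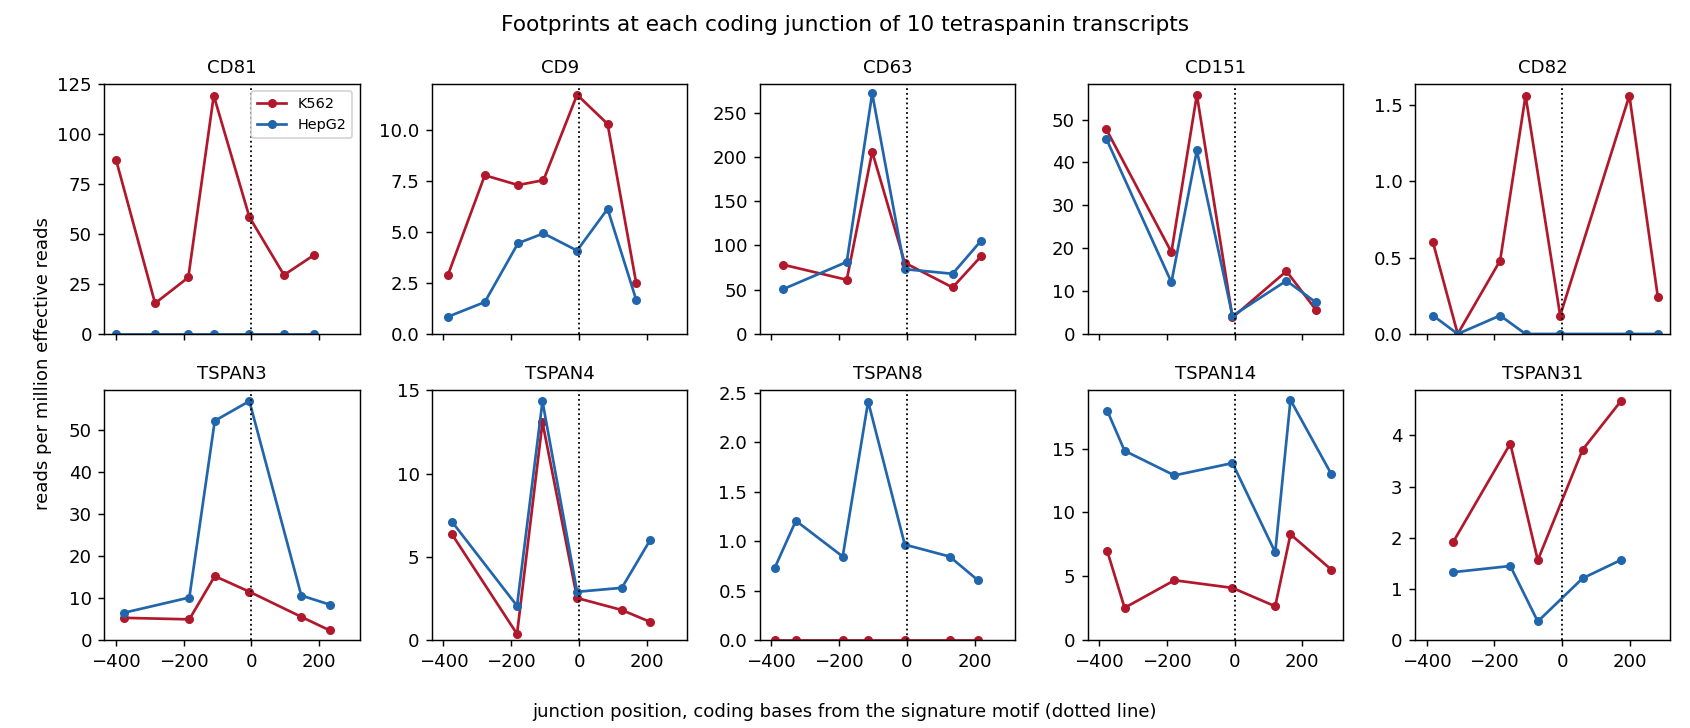
Reads scaled to 1000000 effective reads at each coding junction of the reference transcript, by position in coding bases from the Cys-Cys-Gly codons (dotted line), for K562 (red) and HepG2 (blue), with a separate linear scale for each member. A peak about 100 bases before the motif is seen for CD81 in K562, TSPAN8 in HepG2 and CD63, CD151 and TSPAN4 in both lines, but not for CD9. In HepG2 the first coding junction of CD151 had more reads than this one, 378 against 355. TSPAN14 and TSPAN31 have no coding junction at that position.

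Junction shares at splice sites of the members were compared next. There were 56 such shares, of 43 distinct junctions at 24 sites of 6 members, CD9, CD63, CD151, TSPAN3, TSPAN4 and TSPAN14. None (0) differed by 20 percentage points or more with intervals apart, where 4.2% of 23690 such shares of all genes did. Reads were also seen at 10 annotated junctions of 6 members that pass over at least 1 coding exon, with at most 5 reads in K562 and 3 in HepG2 at any of them. The TSPAN31 junction from 57745218 to 57746588, which passes over 2 exons, took 5 of 21 reads at its donor in K562 (23.8%, 8.22 to 47.2) against 2 of 13 in HepG2 (15.4%, 1.92 to 45.5), too few for the share rule. The junction of TSPAN14 that joins 80507375 to 80512143 took 1 of 40 reads at its donor in K562 and 3 of 110 in HepG2. In CD151, the intron from 836443 to 837249 took 2 of 161 reads in K562 (1.24%, 0.151 to 4.42) and 1 of 101 in HepG2.

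The largest difference in a share concerned the 5′ untranslated region of CD151. The junction from 833027 to 836062 took 32 of 60 reads at its donor in K562 (53.3%, 40.0 to 66.3) against 23 of 28 in HepG2 (82.1%, 63.1 to 93.9), with overlapping intervals. The junction from the same donor to 834529 took 20 footprints in K562 against 3 in HepG2. With all mapped reads, both were past the rule, at 19.4% in K562 and 42.5% in HepG2 for the first and 77.2% and 55.0% for the second.

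Junctions in 5′ untranslated regions took a small part of the members' reads, 1.70% (1.47 to 1.96) in K562 and 1.42% (1.19 to 1.69) in HepG2. Over all genes the part was 6.48% in K562 and 3.29% in HepG2. These values rest on giving coding annotation precedence. With untranslated annotation first, the members had 7.25% in K562 and 15.1% in HepG2, and all genes 10.2% and 6.27%. In HepG2 the members' part was then the larger. Within CD63 the part with coding annotation first was 1.69% (1.34 to 2.09) in K562 and 0.590% (0.404 to 0.832) in HepG2, and the intervals were apart. CD151 had 5.73% (4.53 to 7.13) in K562 against 4.44% (3.29 to 5.84) in HepG2, but with all mapped reads 15.3% (13.6 to 17.2) against 8.05% (6.60 to 9.71). TSPAN4 had 10.2% in K562 and 8.64% in HepG2. TSPAN8 had 15 of its 79 reads in HepG2 there. No read lay in a 3′ untranslated region of a member when coding annotation was given precedence.

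Of the 23 other tetraspanins, 10 had 20 or more reads. Of these, 5 were on the K562 side, 4 on the HepG2 side and 1, TSPAN17, in between, with a median log2 ratio of 1.66. Over all genes, 16.8% were past 2-fold on the K562 side and 21.9% on the HepG2 side. The leukocyte tetraspanin CD53 had 1134 footprints in K562 against 1 in HepG2, a ratio of 1129 (202 to 44622), and CD37, also of leukocytes, had 44 and 0. TSPAN18 had 314 footprints in K562 against 0 in HepG2, TSPAN13 had 806 and 186, and TSPAN5 had 43 and 1.

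On the HepG2 side, TSPAN6 had 4 footprints in K562 against 4430 in HepG2, a ratio of 0.000899 (0.000245 to 0.00230), and was the second tetraspanin of HepG2 per coding junction, at 66.6 (64.6 to 68.6) after CD63. TSPAN9 had 11 footprints in K562 against 964 in HepG2, TSPAN7 had 0 and 423, and TSPAN33 had 0 and 51. The 9 past 2-fold ranged from 4.31-fold for TSPAN13 to 1129-fold for CD53, while CD63 and CD151 had many reads in both lines.

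Some of the genes are neighbours on chromosome 11. CD151 and TSPAN4 lie 2976 bases apart, and neither passed 2-fold. CD82 lies 106101 bases from TSPAN18, and both were higher in K562. TSPAN32 lies 57976 bases from CD81 and had 11 footprints in K562 against 0 in HepG2, too few for the comparison.

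Partner genes went in both directions. Of 21 listed, 17 were measured, 5 past 2-fold in K562, 4 in HepG2 and 8 in neither, with a median log2 ratio of -0.75. Of all measured genes, 16.8% were past 2-fold in K562 and 21.9% in HepG2. The integrin subunit ITGB1 had 2448 footprints in K562 against 4135 in HepG2, a ratio of 0.589 (0.560 to 0.620). ITGA6, a subunit of laminin-binding integrins that associates with CD151, had 2 footprints in K562 against 2515 in HepG2, whereas ITGA4 had 29 and 0. EPCAM had 1113 footprints in K562 against 4613 in HepG2, a ratio of 0.240 (0.225 to 0.256). CD44, a hyaluronan receptor, had 1628 footprints in K562 against 1 in HepG2, and CD47, an integrin-associated protein, had 913 and 85. The EWI genes PTGFRN, with 139 footprints in K562 against 50 in HepG2, and IGSF8, with 75 and 165, were past neither limit.

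ADAM10, the cargo of the TspanC8 subgroup, had 1349 footprints in K562 against 2565 in HepG2, a ratio of 0.523 (0.490 to 0.559). Of the 6 genes of that subgroup, TSPAN14 was the most-read in each line, and TSPAN33 was also higher in HepG2, with TSPAN5 higher in K562. TSPAN17 had 65 footprints in K562 against 28 in HepG2. TSPAN15 had 13 and 6, and TSPAN10 had 0 and 2, both under the minimum.

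Genes of vesicle formation and endosomal sorting were mostly past neither limit, where 38.7% of all genes were past 1 of them. Of 15 listed, 14 were measured, 1 past 2-fold in K562, 2 in HepG2 and 11 in neither, with a median log2 ratio of -0.06. The late endosomal GTPase RAB7A had 6210 footprints in K562 against 6328 in HepG2, a ratio of 0.977 (0.943 to 1.01). SDCBP (syntenin), a binding partner of CD63, had 2165 footprints in K562 against 1190 in HepG2, a ratio of 1.81 (1.69 to 1.95). PDCD6IP (ALIX) had 1812 and 1031, a ratio of 1.75 (1.62 to 1.89). RAB27A, a GTPase of vesicle secretion, was higher in K562 with 1287 reads against 109 in HepG2, and the syndecan SDC4 was higher in HepG2, with 120 in K562 and 1899 in HepG2.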

How the data were processed

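Each deposited table gives, per the file headers, raw counts for every annotated junction, once for all mapped reads and once for uniquely mapped ones. Per the series' design text, RNase I footprints were size-selected and depleted of ribosomal RNA with RiboZero. cutadapt, Bowtie2, STAR 2.6.0 and GRCh38 are named in the submitters' processing notes, and the junction counter is not given in the sources used here. Introns of GENCODE 29 matched 350016 of 350863 junctions (99.8%), including all 184 of the members. The unique counts of a gene's own junctions were added up, genes with 20 or more reads were kept, and TMM factors of edgeR 4.0.16 set the effective depth. Ratios have exact conditional binomial intervals, levels Poisson and shares Clopper-Pearson intervals. The labels mention no molecular identifiers, so reads need not be independent molecules. Reference transcripts were APPRIS principal transcripts with the most junction reads. The interval and share calculations were run on simulated Poisson and binomial counts, the models that the intervals assume. Such a check cannot show spread between samples or the effect of repeated reads. The members, lists and rules were chosen with earlier results of these data known. By rule, all 10 members, the measured other tetraspanins, listed genes with 20 or more reads and the most-read coding junction of each member were named, and other items were chosen after their values were seen. DESeq2 1.42.0 size factors, total reads, all mapped reads, other minimums, 99% intervals and subsets of junctions were alternatives.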

Additional observations from a re-analysis of the deposited data

Results flagged for a closer look

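Reads mapped to more than 1 place were not used in the comparisons above. At a few junctions of the members they outnumbered the uniquely mapped reads. The CD151 junction from 833027 to 834529, in the 5′ untranslated region, had 159 such reads in K562 and 41 in HepG2, beside 20 unique reads in K562 and 3 in HepG2. The CD151 junction from 838029 to 838132 had 94 in K562, beside 47 unique reads. The TSPAN4 junction from 866002 to 866561 had 14 in K562, beside 9 unique reads. Where else these reads map was not tested. With all mapped reads the first of these CD151 junctions was past 2-fold in K562, at 3.97 (2.84 to 5.66). Among the listed partners, IFITM1 was under the minimum with 11 unique reads in K562 and 0 in HepG2. Its counts of all mapped reads were 1639 in K562 and 449 in HepG2. With all mapped reads, 7 partners were past 2-fold in K562 and 4 in HepG2, where unique reads gave 5 and 4.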

How the results depend on the processing

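No paired analysis was possible because each line has 1 pooled table, and for the same reason no sample could be left out. Of 98 member ratios under 10 alternatives, 92 kept their direction and their side of the limit. With total reads, 4 members were higher in K562, TSPAN14 lost its call at a log2 ratio of -1.07, and CD63 turned to 0.24. CD63 was at 0.00 without its most-read junction. A minimum of 100 reads left 1 member and 3 other tetraspanins higher in K562, since CD82, CD37 and TSPAN5 were no longer tested. Among sorting genes, total reads gave 3 higher in K562 and 1 in HepG2, and leaving out each most-read junction gave 2 and 1. The CD63 level per coding junction was 78.3 in K562 and 73.1 in HepG2 with the median over junctions, 63.1 and 73.8 with all mapped reads, and 93.5 and 80.3 with total reads. All mapped reads brought 2 CD151 junctions past the share rule. With untranslated annotation first, coding junctions took 34.8% of member reads in K562 against 40.2% in HepG2, and those of the 5′ untranslated region 7.25% and 15.1%, so that the line with more 5′ untranslated reads changed. With all mapped reads these were 96.7% and 98.0%, and 3.18% and 1.95%. With coding junctions nearer than 60 bases to the start codon left out, an alternative added after seeing the data, TSPAN31 passed 2-fold with a ratio of 2.82 (2.03 to 3.96). Depth limits CD82, TSPAN8 and TSPAN31 most.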

Other observations

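CD81 is known as a receptor for hepatitis C virus on hepatocytes, together with SCARB1, CLDN1 and OCLN. In contrast to CD81, these 3 were higher in HepG2: SCARB1 had 878 footprints in K562 against 2836 in HepG2, CLDN1 had 0 and 1254, and OCLN had 1 and 286. KIT, a growth factor receptor reported to associate with tetraspanins, had 235 footprints in K562 against 0 in HepG2.

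The median log2 ratio of K562 to HepG2 over all measured genes of the chromosomes that hold the members was -0.21 on chromosome 10, 0.25 on chromosome 11, 0.16 on chromosome 12 and 0.09 on chromosome 15.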
